A study of Rattus norvegicus with 6 samples.

Results

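Keratins and claudins are the gene families that give epithelial sheets their cytoskeleton and their seals. The members described here were taken by name, not by any measured value: every row of the deposited table whose symbol is a numbered keratin (44 genes, Krt) or claudin (22 genes, Cldn), together with Epcam, Ocln, Esrp1, Esrp2, Grhl2 and Marveld2, in all 72 of 17089 genes. Earlier results of these data were, however, known when these families were chosen. Grhl1, also in the rule, and Krt7 were not analysed here. RNA came from neonatal rat ventricular myocytes, heart muscle cells taken from the ventricles of Sprague Dawley pups at postnatal day 1 to 3 and kept as primary cultures, which can hold other cardiac cell types beside myocytes. Cultures received Ad-GFP (3 libraries, called GFP) or Ad-Tbx18-IRES-GFP (3 libraries, called Tbx18), adenoviral vectors given when the cells were isolated, and RNA was taken at day 4 after gene transfer. Both groups therefore carried an adenovirus and GFP, and they differed in Tbx18, a transcription factor of the T-box family that is active in the embryonic epicardium and around the sinus node. The column headers of the deposited values carry the words unpace and Control for every library of both groups.

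Keratins are intermediate filament proteins that assemble only as pairs of a type I and a type II chain. Krt8 with Krt18 is the pair of simple epithelia and of mesothelium, the epithelial cover of organs such as the heart, whereas working heart muscle relies on desmin. Claudins are membrane proteins that cross the membrane several times and form the strands of tight junctions, some sealing the space between cells and some forming ion pores. Ocln (occludin) and Marveld2 (tricellulin) sit in the same junctions, Epcam is an adhesion protein of epithelial cells, Esrp1 and Esrp2 direct the epithelial pattern of splicing, and Grhl2 is a transcription factor that maintains epithelial gene expression.

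The libraries held 17074483 to 19800300 reads assigned to genes, and values are normalized counts, that is, reads divided by a size factor for each library. Tbx18 itself read 312, 268 and 296 normalized counts in GFP and 6004, 6236 and 5937 in Tbx18, so that each library matched its label. Myocyte genes were abundant in every library, Myh6 at 208772 normalized counts or more. Testing used limma on normalized counts plus 1 in log2 units, for genes whose mean across all 6 libraries reached 10, and a gene was called at a Benjamini-Hochberg adjusted p under 0.05. Of 11230 genes tested, 22.5% were called higher and 23.5% lower in Tbx18 (2525 and 2639 genes). That balance depends on the scaling, with 3054 higher and 2209 lower under upper-quartile scaling and 4770 higher and 1351 lower with equal totals. Whether the replicates came from separate isolations is not stated in the labels, and the p-values therefore measure only how far these libraries spread, which may be technical.

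The stretches of DNA before the start sites of 4 of the members that rose are shown first, to set the neighbours Krt8 and Krt18, which rose by different amounts, beside a claudin (Cldn3) and occludin. In the RefSeq gene table Krt8 and Krt18 lie on chromosome 7 with 0 other protein-coding genes between them. RefSeq windows of the GRCr8 build, which may differ from that of the deposited table, were found for 13 of the 19 tested members. Each line gives the 250 bases before the start, 5′ to 3′ on the gene's strand. Capitals mark TATAA, the core of a TATA element, and the E-box CAGGTG or its complement CACCTG, a sequence that repressors of the Snail and Zeb families are known to bind in epithelial genes.
Krt8 (chr7:135010340-135010589, minus strand): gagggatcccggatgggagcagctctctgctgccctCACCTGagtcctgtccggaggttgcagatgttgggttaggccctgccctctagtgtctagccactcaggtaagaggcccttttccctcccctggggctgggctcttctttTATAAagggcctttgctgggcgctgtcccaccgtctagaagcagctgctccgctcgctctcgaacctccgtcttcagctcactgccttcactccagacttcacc
Krt18 (chr7:135035918-135036167, plus strand): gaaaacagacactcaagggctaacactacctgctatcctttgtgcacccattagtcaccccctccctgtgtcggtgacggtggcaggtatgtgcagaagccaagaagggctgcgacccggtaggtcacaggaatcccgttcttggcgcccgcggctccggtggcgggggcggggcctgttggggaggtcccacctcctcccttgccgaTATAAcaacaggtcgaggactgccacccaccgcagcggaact
Cldn3 (chr12:27346548-27346797, minus strand): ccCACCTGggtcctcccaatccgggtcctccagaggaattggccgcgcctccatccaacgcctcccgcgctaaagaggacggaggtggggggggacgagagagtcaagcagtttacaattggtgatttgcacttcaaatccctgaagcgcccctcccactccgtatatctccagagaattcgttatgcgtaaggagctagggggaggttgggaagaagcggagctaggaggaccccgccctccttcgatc
Ocln (chr2:33441199-33441448, minus strand): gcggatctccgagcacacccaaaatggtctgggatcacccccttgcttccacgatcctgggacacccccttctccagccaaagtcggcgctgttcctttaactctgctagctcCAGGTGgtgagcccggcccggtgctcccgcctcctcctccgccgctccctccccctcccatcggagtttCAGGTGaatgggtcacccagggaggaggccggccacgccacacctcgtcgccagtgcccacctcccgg

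TATAA stood before the start in 5 of the 13 members with a window (Krt8, Krt18, Krt10, Krt24 and Marveld2) and in 16.7% of all 33469 windows. Counted from the start, it began at -29 in Krt10, -42 in Krt18, -84 in Krt24, -104 in Krt8 and -250 in Marveld2. The search took any position before the start, so a match need not be a working TATA element. The E-box was found, on either strand of the 300-base window that also holds 50 bases after the start, in Krt8, Krt23, Cldn3, Epcam and Ocln, with 2 matches in Ocln, and in 18.8% of all windows. The T-box half-site GGTGTGA and the Grainyhead pair AACCGGTT, searched on both strands, were found in 0 of the 13 windows, against 3.83% and 0.173% of all windows. The GC content of the window was 75.7% for Epcam, 65.3% for Ocln, 60.3% for Krt18, 59.0% for Krt8 and 58.0% for Cldn3. It was 37% for Cldn12, 43% for Marveld2, 45% for Krt24 and 45.3% for Krt10, and between 54% and 61% for the other 4 members with a window, with a median of 51.7% over all windows. These matches describe the letters of the windows and were not tested for binding.

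Of the 72 members, 52 had at least 1 read in at least 1 library and 20 had none, whereas 83% of all 17089 genes had a read. Among keratins 29 of 44 were detected, among claudins 17 of 22, and all 6 of the other epithelial members. The undetected keratins were Krt4, Krt20 and Krt77, the hair keratins Krt31, Krt32, Krt33a, Krt33b, Krt34, Krt36, Krt83, Krt84 and Krt85, and Krt25, Krt27 and Krt73, which belong to the sheath of the hair root. The undetected claudins were Cldn8, Cldn14, Cldn17, Cldn18 and Cldn24. A read was found for 25, 26 and 25 members in the GFP libraries and for 42, 39 and 41 in the Tbx18 libraries, and over all genes the number also lay apart, at 12619 to 12700 in GFP and 13290 to 13473 in Tbx18. Of all members, 19 (26.4%) had reads in at least 1 Tbx18 library and in no GFP library, against 5.3% of all genes, and 2 had reads in GFP only, against 0.819% of all genes. The 19 included 14 keratins, 4 claudins and Esrp1, most of them with a few reads. Of the 52 detected members 33 had a mean under 10 normalized counts, against 2947 of the 14177 detected genes. The members were thus lower in level than genes at large, and a low gene more easily has reads in 1 group only.

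A mean of at least 10 normalized counts was reached by 19 members, 8 keratins, 7 claudins and 4 others, and 14 of them were called higher in Tbx18, 1 lower and 4 neither. The median log2 fold change of these 19 genes was 1.47, and that of all 11230 genes tested was 0.01. These figures describe the tested members and not the family, since 5 of the 19 (Krt17, Krt23, Krt24, Cldn19 and Epcam) passed the filter only through their Tbx18 libraries. In 13 of the 19 all Tbx18 libraries lay above all GFP libraries, and in 1 below, against 28.6% of all genes tested in either direction. In bulk RNA a larger number of cells of a type and more RNA per cell cannot be told apart.

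**Figure D1:**
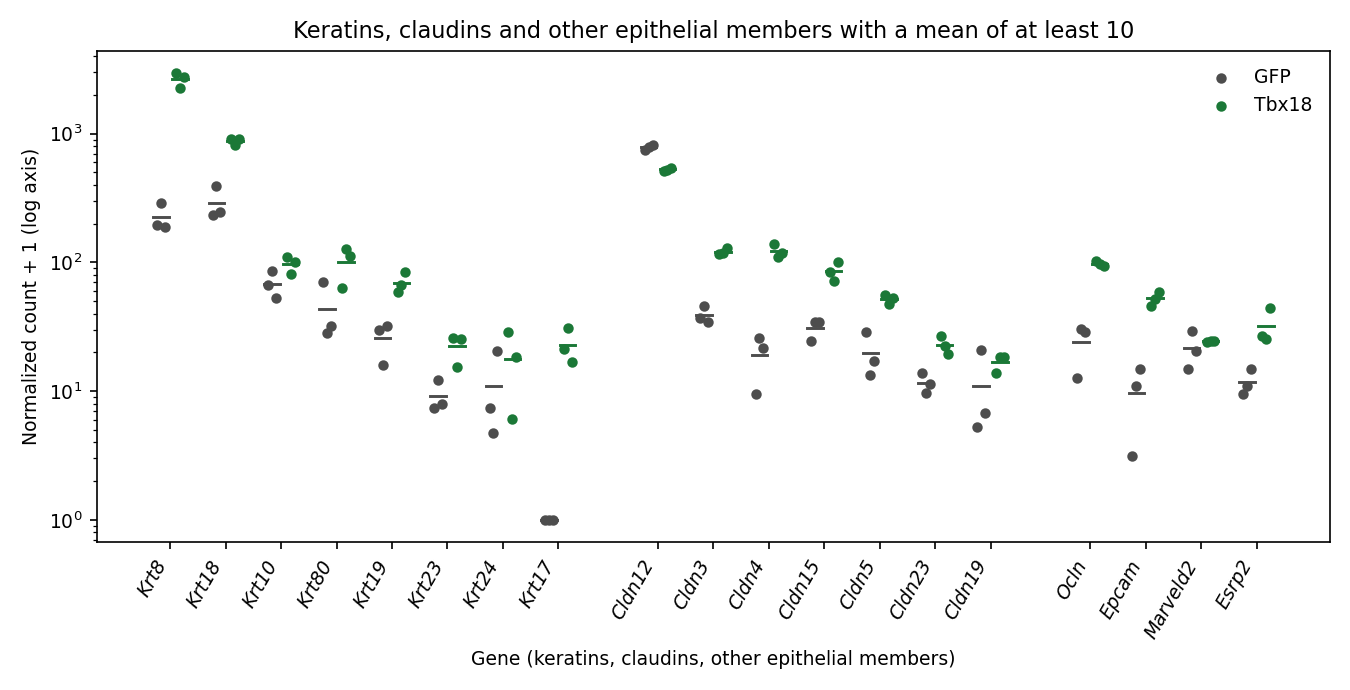
Normalized counts plus 1 (log axis) of the 19 tested members in each of the 3 GFP and 3 Tbx18 libraries, each point a library, with group means as bars. Krt8 spans the widest range among the abundant members, from 188 to 2950.2 normalized counts, and Cldn12 is the member whose Tbx18 points lie below its GFP points.

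Krt8, the type II keratin of simple epithelia, read 193, 289 and 188 normalized counts in GFP and 2950.2, 2268 and 2767 in Tbx18. Every Tbx18 library was far above every GFP library. From 223 ± 57.2 in GFP to 2662 ± 353 in Tbx18 (SD, n = 3 per group), the mean rose 11.9-fold. The log2 fold change was 3.59 (SE 0.17, limma adjusted p = 2.27e-06). Krt18, the type I partner of Krt8, read 234, 389 and 246 in GFP and 904, 813 and 907 in Tbx18, again with no overlap. The means were 289.8 ± 86.2 and 874 ± 53.6 (SD, n = 3 per group), so Krt18 rose 3.02-fold. On the log2 scale this was 1.63 (SE 0.18, limma adjusted p = 0.000101). Within GFP, replicate 2 was the highest library for both partners.

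The partners rose by different amounts. The ratio of Krt8 to Krt18 normalized counts within a library was 0.823, 0.743 and 0.762 in GFP and 3.26, 2.79 and 3.05 in Tbx18. The log2 ratio thus differed by 1.97 (SE 0.08) between the groups, whose ranges did not overlap (two-sided exact permutation test, p = 0.1, the smallest that 3 against 3 libraries can give). The ratio is free of the size factors but not corrected for transcript length, so that its change between groups can be read and its level cannot. Taken as the difference of the fitted log2 fold changes, the change ran from 1.91 to 2.02 over all alternatives, each library left out included. Krt19, a type I keratin that can also pair with Krt8, was compared with Krt18 in the same way, and the log2 ratio of Krt19 to Krt18 differed by -0.11 (SE 0.59, exact permutation p = 1), with GFP ratios from 0.0381 to 0.126.

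Krt19 was read at 28.7, 14.8 and 31.1 normalized counts in GFP and at 58.0, 65.6 and 82.5 in Tbx18. It rose 2.76-fold without overlap (log2 fold change 1.48 with SE 0.31, adjusted p = 0.00334 by limma). Krt17, a keratin of hair follicles and of injured epidermis, had 0 reads in each GFP library and 22, 29 and 18 reads in the Tbx18 libraries. Its Tbx18 mean of 21.9 ± 7.11 normalized counts was at least 6.36-fold higher than a floor of 3 reads in each GFP library (limma adjusted p = 0.00013). The fitted log2 fold change of Krt17 depends on the pseudocount, at 4.47 with 1 and 5.44 with 0.5, and is no bound.

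Krt23, a type I keratin, read 6.38, 11.1 and 6.90 normalized counts in GFP and 24.9, 14.3 and 24.6 in Tbx18, a rise of 2.61-fold (log2 fold change 1.28, limma adjusted p = 0.02). The Krt23 call was lost without Tbx18 replicate 1 (adjusted p = 0.0897) and without Tbx18 replicate 3 (adjusted p = 0.0815). Krt80, a type II keratin of differentiating epithelia, read 69.1, 27.2 and 31.1 in GFP and 62.6, 127 and 111 in Tbx18. Krt80 was called higher (log2 fold change 1.28 with SE 0.37, adjusted p = 0.0189 by limma), although GFP replicate 1 was above Tbx18 replicate 1. The Krt80 call ended when GFP replicate 2 (adjusted p = 0.0711), GFP replicate 3 (0.0579), Tbx18 replicate 2 (0.0770) or Tbx18 replicate 3 (0.0776) was left out.

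The 2 tested keratins that were not called were Krt10 and Krt24. Krt10, known from the upper layers of the epidermis, had 66.0, 84.0 and 51.8 normalized counts in GFP and 109.5, 80.9 and 99.2 in Tbx18, with overlap between the groups (log2 fold change 0.53 with SE 0.22, adjusted p = 0.0726 by limma). It was called with upper-quartile scaling (0.60, adjusted p = 0.0480), with equal totals (0.79, adjusted p = 0.0129) and when GFP replicate 2 was left out (0.70, adjusted p = 0.0300), and its adjusted p ran from 0.0129 to 0.228 over all alternatives. Krt24 varied within both groups, from 3.70 to 19.6 in GFP and from 5.12 to 27.6 in Tbx18 (log2 fold change 0.73 with SE 0.68, adjusted p = 0.405 by limma). In all, limma called 6 of 8 tested keratins higher and 0 lower, against 22.5% higher and 23.5% lower among all genes tested. The count describes the tested keratins only, since Krt17, Krt23 and Krt24 passed the filter only through their Tbx18 libraries. At an unadjusted p under 0.05, by edgeR and by DESeq2, 0 were lower as well. Not corrected for transcript length, the summed keratin counts went from 669 ± 134 to 3895 ± 404, and Krt8 with Krt18 made up 76.0% ± 6.04 of the sum in GFP and 90.7% ± 1.1 in Tbx18 (SD, n = 3 per group). Without Krt8 and Krt18 the sum went from 156 ± 19.6 to 359 ± 25.1.

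Cldn3 and Cldn4, sealing claudins of many epithelia, are next to each other on chromosome 12 with no protein-coding gene between them. Cldn4 read 8.51, 24.7 and 20.7 normalized counts in GFP and 139, 109 and 117 in Tbx18. Cldn4 rose 6.76-fold without overlap (log2 fold change 2.80 with SE 0.35, adjusted p = 0.000211 by limma). Cldn3 read 36.2, 44.5 and 33.4 in GFP and 115, 117 and 127 in Tbx18. Cldn3 rose 3.15-fold, also without overlap (log2 fold change 1.64 with SE 0.19, adjusted p = 0.000126 by limma). The ratio of Cldn4 to Cldn3 was 0.235, 0.556 and 0.621 in GFP and 1.21, 0.93 and 0.917 in Tbx18, a log2 difference of 1.22 (SE 0.46, exact permutation p = 0.1). GFP replicate 1, with the lowest Cldn4 value, weighed on that ratio. In the limma fits on counts plus 1, the log2 fold change of Cldn4 exceeded that of Cldn3 by 1.16 with all libraries. Without GFP replicate 1 the excess was 0.757.

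Cldn15, a claudin known to form cation pores in the gut, went from 23.4, 33.3 and 33.4 normalized counts in GFP to 83.8, 70.7 and 99.2 in Tbx18. It rose 2.81-fold without overlap (log2 fold change 1.47 with SE 0.23, adjusted p = 0.000773 by limma). Cldn5, the main claudin of endothelial cells, went from 27.7, 12.3 and 16.1 to 55.2, 46.1 and 51.8, a rise of 2.73-fold without overlap (log2 fold change 1.47 with SE 0.31, adjusted p = 0.00383 by limma). Endothelial markers moved in the same libraries, where 22.5% of all genes tested were called higher and 23.5% lower. Of 14 tested, 7 rose and Kdr fell (a call lost with equal totals, adjusted p = 0.0650), with a median log2 fold change of 0.50. Among those that rose were Erg with 11.9 and 47.8, Tek with 154 and 413 and Sox18 with 75.5 and 151 normalized counts in GFP and Tbx18, while the pan-endothelial Pecam1 was at 217 to 408 in GFP and 342 to 391 in Tbx18 and was not called. The summed level of the 15 markers in the table was 3844 to 5867 in GFP and 7106 to 7269 in Tbx18, and none was at 0 in every library. GFP replicate 2 was the lowest library for Cldn5 and for the sum. The number of endothelial markers called higher was 4 without Tbx18 replicate 1, 4 without Tbx18 replicate 3 and 4 without the intensity trend, and the Sox18 call was lost there and without Tbx18 replicate 2 (adjusted p from 0.0639 to 0.0889). The part of endothelial cells in the Cldn5 result was not tested.

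Cldn12, an atypical claudin found in many tissues, was the tested member that fell. It read 748, 780.5 and 812 normalized counts in GFP and 513, 525 and 542 in Tbx18. Every Tbx18 library was below every GFP library, and the mean fell 1.48-fold (log2 fold change -0.57 with SE 0.09, adjusted p = 0.000713 by limma). With equal totals, a scaling under which the median over all genes moved from 0.01 to 0.27 (log2), that of Cldn12 was -0.30 and still called (adjusted p = 0.0163). With Cldn12 lower and 5 claudins higher, the summed claudin counts were 918 ± 33.2 in GFP and 965 ± 27.4 in Tbx18. Without correction for length, Cldn12 made up 85.0% ± 1.3 of that sum in GFP and 54.6% ± 1.5 in Tbx18, and the sum without Cldn12 went from 138 ± 12.5 to 439 ± 23.5 (SD, n = 3 per group).

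Cldn23 and Cldn19 had few reads. Cldn23 read 12.8, 8.64 and 10.4 normalized counts in GFP and 25.8, 21.5 and 18.4 in Tbx18, without overlap, and was called higher (log2 fold change 0.99 with SE 0.32, adjusted p = 0.0297 by limma). The Cldn23 call was lost without any 1 library other than GFP replicate 1, with adjusted p-values of 0.0606 without GFP replicate 2, 0.0554 without GFP replicate 3, 0.130 without Tbx18 replicate 1, 0.0830 without Tbx18 replicate 2 and 0.0506 without Tbx18 replicate 3, and DESeq2 did not call it (0.09). Cldn19, known from kidney tubules and Schwann cells, read 4.26, 19.8 and 5.75 in GFP and 12.9, 17.4 and 17.6 in Tbx18. GFP replicate 2 was above all Tbx18 libraries, and Cldn19 was not called (log2 fold change 0.90, limma adjusted p = 0.185), but was called without that library (1.5, adjusted p = 0.0144, with a range from 0.0144 to 0.416 over all alternatives). Of 3 tested markers of Schwann cells S100b was called higher, as were 22.5% of all genes tested. The S100b call was lost without Tbx18 replicate 1 (adjusted p = 0.0904), without Tbx18 replicate 3 (adjusted p = 0.0531) and by DESeq2 (adjusted p = 0.0530). The summed level of the 6 markers was 135 to 155 in GFP and 172 to 189.6 in Tbx18.

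**Figure D2:**
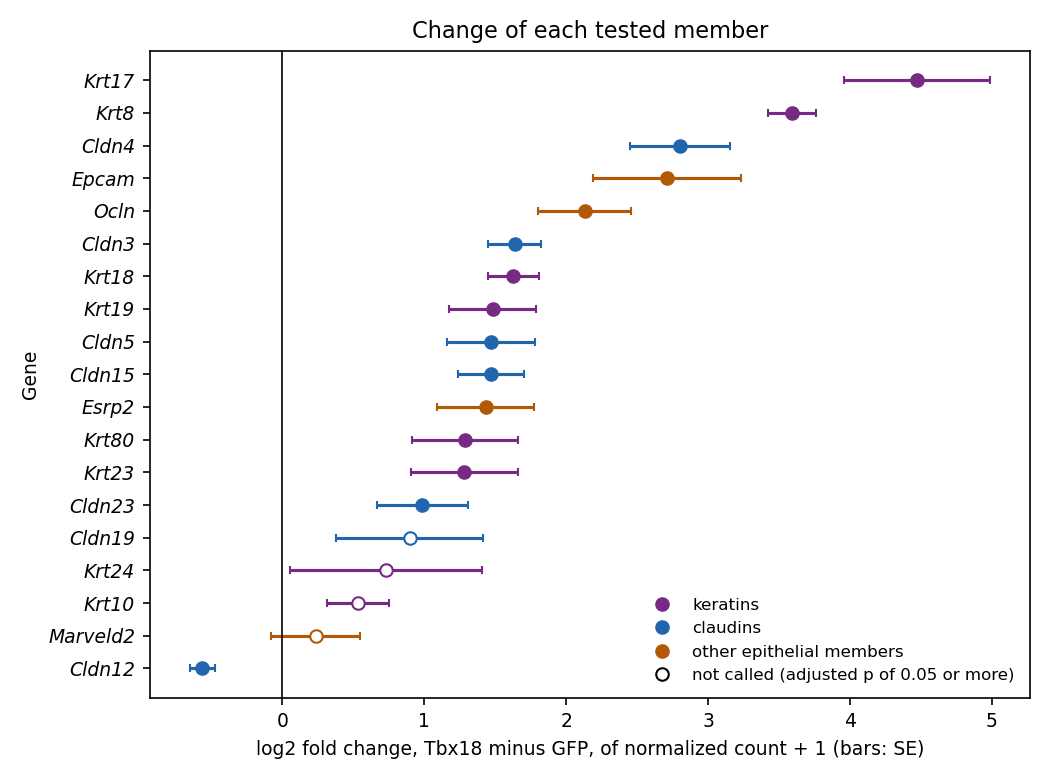
Log2 fold change (Tbx18 minus GFP, of the normalized count plus 1) of the 19 tested members, with bars of 1 SE from limma, coloured by family and open where the adjusted p was 0.05 or more. Cldn12 at -0.57 is the member left of 0, and Krt17, Krt8, Cldn4, Epcam and Ocln lie furthest right, the last of them at 2.13.

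Of the other junction and identity genes, Ocln and Epcam rose most. Ocln read 11.7, 29.6 and 27.6 normalized counts in GFP and 101, 96.3 and 93.0 in Tbx18. Ocln rose 4.21-fold without overlap (log2 fold change 2.13 with SE 0.33, adjusted p = 0.000648 by limma). Its neighbour on chromosome 2, Marveld2, which seals the corners where several cells meet, read 13.8, 28.4 and 19.6 in GFP and 23.0, 23.6 and 23.7 in Tbx18 and was not called (log2 fold change 0.23 with SE 0.32, adjusted p = 0.573 by limma). The sign of that value turned to -0.0097 without GFP replicate 1. The ratio of Ocln to Marveld2 was 0.846, 1.04 and 1.41 in GFP and 4.40, 4.09 and 3.93 in Tbx18, a log2 difference of 1.94 (SE 0.22, exact permutation p = 0.1).

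Epcam read 2.13, 9.88 and 13.8 normalized counts in GFP and 45.1, 51.2 and 57.9 in Tbx18, so that the groups were well apart. It rose 5.98-fold (log2 fold change 2.71 with SE 0.52, adjusted p = 0.00228 by limma), and the log2 fold change was 2.04 without GFP replicate 1, the library with 2 reads. Esrp2 read 8.51, 9.88 and 13.8 in GFP and 25.8, 24.6 and 43.0 in Tbx18. Esrp2 rose 2.90-fold without overlap (log2 fold change 1.43 with SE 0.34, adjusted p = 0.00707 by limma). Its paralogue Esrp1 had 0 reads in each GFP library and 6, 2 and 6 reads in the Tbx18 libraries and was below the filter. Grhl2, with at most 2 reads in a library, was at the limit of detection in both groups.

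**Figure D3:**
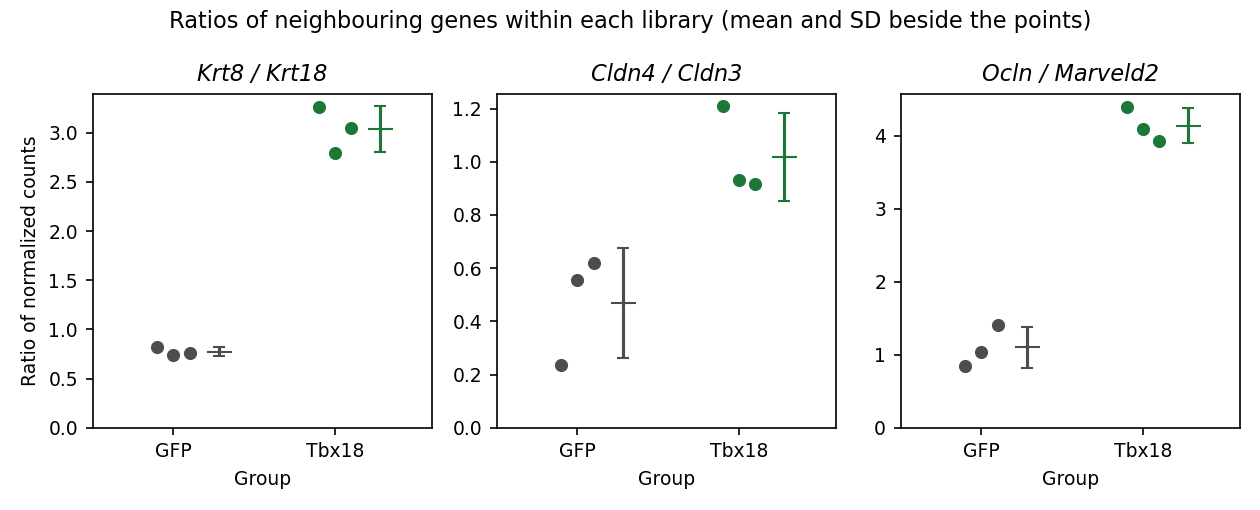
Ratio of normalized counts of neighbouring genes within each library (y axis from 0), with points for the 3 GFP and 3 Tbx18 libraries and the mean and SD beside them. All 3 ratios lie higher in every Tbx18 library than in any GFP library, Krt8 to Krt18 at 2.79 to 3.26 against 0.743 to 0.823.

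Below a mean of 10 normalized counts lay 33 detected members, 13 with a mean of at least 1 and 20 with less, the latter never with more than 3 reads in a library. Those 33 were not tested. With no filter on low values, limma called 6 of them higher (Krt1, Krt39, Krt42, Krt82, Cldn7 and Esrp1) and 0 lower. That share of rises was near the 16.9% called higher among all 2947 genes of such low level. Cldn7, a basolateral claudin of epithelia and partner of Epcam, had 0 reads in each GFP library and 6, 6 and 7 in the Tbx18 libraries, a mean at least 1.72-fold above a floor of 3 reads per library. Krt42 had 0, 2 and 0 reads in GFP and 18, 12 and 6 in Tbx18. Krt39 had 0 in each GFP library and 1, 2 and 7 in Tbx18.

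The other members with a mean of at least 1 had at most 8 reads in a library. Krt1, a keratin of the upper epidermis, had 0, 0 and 1 reads in GFP and 2, 2 and 4 in Tbx18, and Krt14, of the basal epidermis, had 0, 0 and 1 against 1, 1 and 6. Krt13 had 0, 0 and 1 against 1, 2 and 3, and Krt12 was at 0 in GFP with 3, 0 and 4 in Tbx18. Of the members with a mean under 1, Krt82 was at 0 in GFP with 2, 1 and 1 reads in Tbx18. Krt5, the type II partner of Krt14 and also with a mean under 1, had 1 read in 1 Tbx18 library and none elsewhere. Among claudins, Cldn6 had 0, 1 and 0 reads against 3, 5 and 1, Cldn11 had 3, 0 and 2 against 5, 5 and 2, and Cldn22 had 4, 2 and 3 against 6, 4 and 6. Cldn1, a main sealing claudin of skin, had 5, 2 and 3 reads against 1, 8 and 2, and Cldn20 had 6, 1 and 0 against 2, 1 and 1. Among those with a mean of at least 1, the normalized counts of the groups overlapped for Krt12, Krt13, Krt14, Cldn1, Cldn6, Cldn11, Cldn20 and Cldn22.

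**Figure D4:**
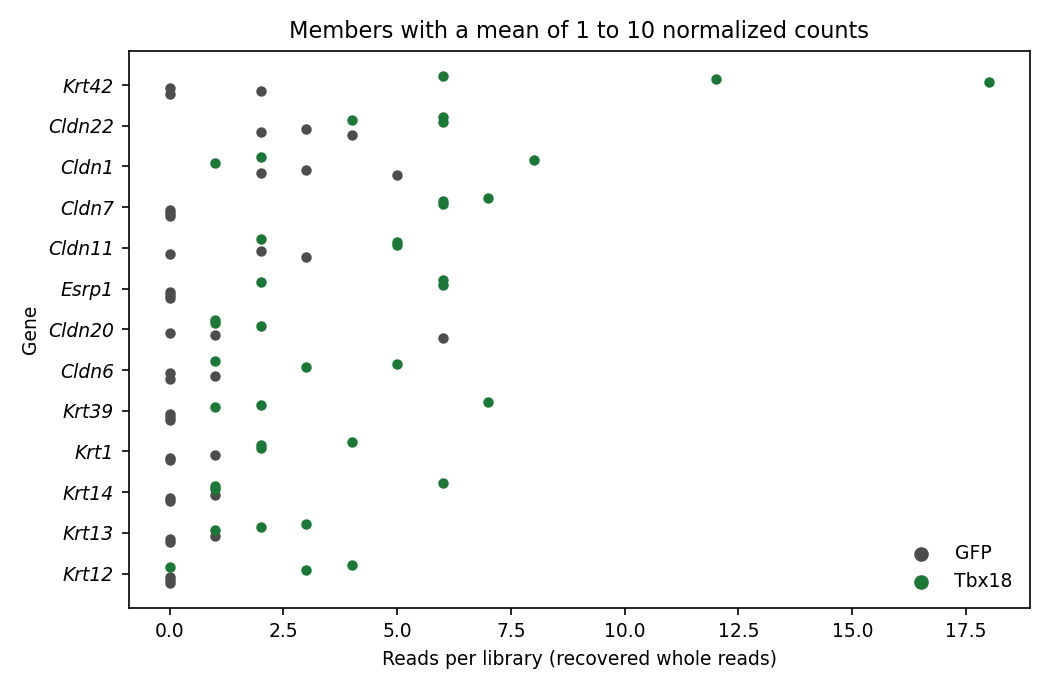
Reads per library (x axis) of the 13 members with a mean of 1 to 10 normalized counts, grey for GFP and green for Tbx18, each point a library. Krt42 reaches 18 reads and Cldn7 6 to 7 in Tbx18, while Cldn1, Cldn20 and Cldn22 have reads in both groups.

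Genes of the same pathways outside the members were counted from lists. Among all genes tested, 22.5% were called higher and 23.5% lower. Of 13 tested epithelial genes 7 rose and 3 fell, with a median log2 fold change of 1.22, and 12 were called higher with no filter and 4 with a minimum mean of 50. These counts describe the tested genes only, since Cdh1, Itgb6, Spint1 and Ovol1 passed the filter only through their Tbx18 libraries. Cdh1, the cadherin of epithelial adherens junctions, had 0 reads in each GFP library and 42, 32 and 55 in Tbx18, at least 11.6-fold above the floor of 3 reads (limma adjusted p = 2.36e-05). Itgb6 and St14, an epithelial integrin subunit and the protease matriptase, rose 5.39-fold and 3.64-fold. Of 22 tested proteins of the junction plaque and membrane 6 rose, a share near that of all genes, and 9 fell, with a median of 0.10. Crb3, a polarity protein of the apical membrane, and Tjp3, a scaffold that binds claudins, rose 3.68-fold and 2.72-fold, while Cgnl1 (paracingulin) fell 2.75-fold. Tjp1, the scaffold ZO-1, read 5293 ± 676 in GFP and 4047 ± 259 in Tbx18 and was called lower (log2 fold change -0.38, limma adjusted p = 0.0139), but not with equal totals (-0.12, adjusted p = 0.388), without Tbx18 replicate 1 (adjusted p = 0.0654) or without Tbx18 replicate 2 (adjusted p = 0.0535). In this list 12 genes were called higher with equal totals and 10 without GFP replicate 1. Of all 11230 genes tested, 4770 and 2870 were called higher in those settings, against 2525 in the main fit.

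Among other filament genes 10 of 15 rose and 2 fell, against 22.5% and 23.5% of all genes tested. Their median was 0.52, and Nefl and Ina passed the filter only through Tbx18. Des (desmin), the filament of muscle, fell 2.53-fold from 104553 ± 16723 normalized counts, and Nefh, a neurofilament, fell 2.64-fold. Ppl (periplakin), which links keratins to the cell border, rose 3.53-fold, and Nefl rose from 4.30 to 25.7. Vim (vimentin) was called higher at 0.39 (limma adjusted p = 0.0256), a call lost without GFP replicate 3 (adjusted p = 0.0807) and without Tbx18 replicate 1, 2 or 3 (adjusted p = 0.0566, 0.0926 and 0.0911). Plec (plectin) was not called at 0.32 (adjusted p = 0.0660), but was with upper-quartile scaling (0.0304), equal totals (0.00540), DESeq2 (0.0386), the replicate number as a block (0.0152) and without GFP replicate 3 (0.0335).

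Markers of other cell types moved in the same libraries as the keratins and claudins. Among all genes tested, 22.5% were called higher and 23.5% lower. Of 7 tested mesothelial and epicardial markers 5 rose and Gpm6a fell, with a median log2 fold change of 0.91 and a summed level of the 9 in the table of 735 to 778 normalized counts in GFP and 1251 to 1258 in Tbx18. Tcf21, Aldh1a2 and Upk1b rose 3.85-fold, 3.19-fold and 2.72-fold, while Wt1, at 80.3 to 124 in GFP and 111 to 152 in Tbx18, was not called, and Bnc1 was at 0 in GFP and had at most 2 reads in Tbx18. Krt8 rose 11.9-fold in those libraries. Of 10 fibroblast markers, of which Tcf21 is also on the epicardial list, 9 rose (median 1.19), among them Col3a1 3.08-fold and Postn 2.52-fold, with a summed level of 241506 to 281437 in GFP and 517609 to 602254 in Tbx18. Of 9 myocyte markers 7 fell (median -0.96), Myh7 5.94-fold, Actc1 2.96-fold and Tnnt2 2.56-fold, and their summed level was 1388963 to 1532559 in GFP and 617590 to 639646 in Tbx18. Of 7 leukocyte markers Csf1r and Cd68 were called higher (limma adjusted p = 0.0110 and 0.0382), a share near that of all genes. The number called was 1 without GFP replicate 1, GFP replicate 3 or Tbx18 replicate 2. It was 0 without Tbx18 replicate 3 and 4 without GFP replicate 2 or with equal totals. The summed level of the 8 listed was 1093 to 1939 in GFP and 1304 to 1784 in Tbx18, with Cd3e at 0 throughout. The part of these cell types in the rise of keratins and claudins was not tested.

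**Figure D5:**
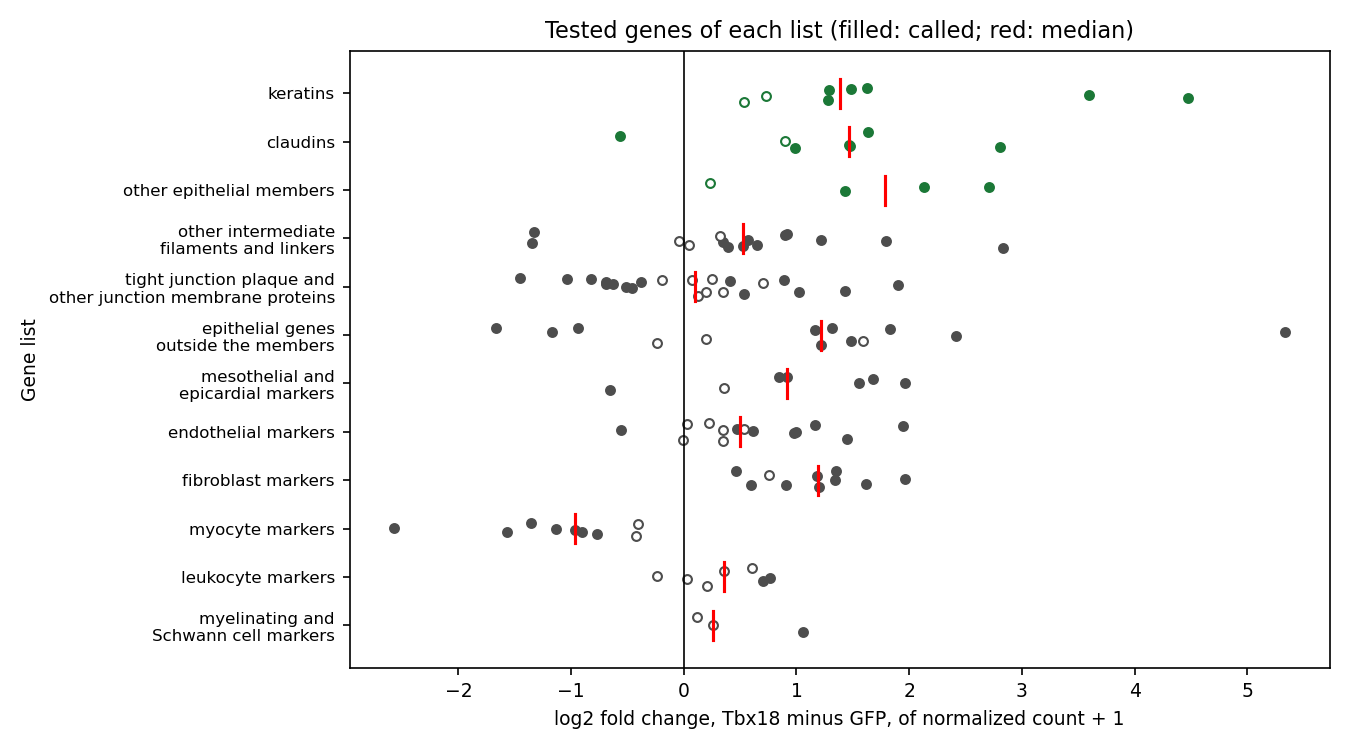
Log2 fold change (Tbx18 minus GFP, of the normalized count plus 1) of the tested genes of the 3 member groups (green) and of the lists outside them (grey), each point a gene, filled where called, with the list median in red. Keratins (median 1.38), claudins (1.47) and the other epithelial members (1.78) lie right of 0 apart from Cldn12, and myocyte markers (-0.96) lie left of it.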

How the data were processed

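Gene expression was measured in 6 cultures of neonatal rat ventricular myocytes by stranded mRNA sequencing. The authors deposited 1 table of normalized counts for 17089 genes, by its name made with DESeq2, a signal in which the gene reads of each library were divided by a size factor. The submitters' processing notes name HTSeq, DESeq2 1.10.1, STAR 2.4.0g1 and bcl2fastq 2.17.1.14 and no role for any. The build, the annotation and whether counting used strand were not given in the sources used here. Reads of close paralogues such as keratins, of pseudogenes or of overlapping genes may have been split or shared.

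Every deposited value was a whole multiple of the smallest value above 0 in its column within 0.01 (100% of values), and reads were recovered by dividing by that step. Differences were tested across all genes with limma 3.58.1 in R 4.3.3 (intensity trend, log2 of the normalized count plus a pseudocount of 1, mean of at least 10, Benjamini-Hochberg adjustment, all 6 libraries, no block). Alternatives were the recovered reads in DESeq2 1.42.0 and in edgeR 4.0.16, other pseudocounts, filters and scalings, a replicate block and leaving out each library. The tests were first tried on simulated counts. Ratios were compared by a two-sided exact permutation test for 3 gene pairs that are neighbours or partners and for Krt19 with Krt18, chosen after their values were seen. All members with a mean of at least 10 are named with their values, those with a mean of at least 1 by their reads and the rest by counts, and from each list the 3 called genes with the largest change, with Cdh1, Vim, Des, Plec and Tjp1 named whatever their result and Myh6 as a check of the cell type. The motifs CAGGTG and TATAA were chosen after the members' values were seen, and Pecam1, Wt1, Bnc1, Krt5, Krt82, Spint1, Ovol1, Ina and Gpm6a were named after their values were seen. The members and lists were chosen with earlier results of these data known. The genes called lower among the epithelial genes outside the members are not reported here by name.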

Additional observations from a re-analysis of the deposited data

How the results depend on the processing

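Of the 19 tested members, 18 kept the sign of their log2 fold change under each of the 16 alternatives that tested them, which with a minimum mean of 50 were 9 members. The exception was Marveld2, never called, at 0.23, whose lowest value was -0.0097 without GFP replicate 1 and whose highest was 0.49 with equal totals. With other libraries left out it reached 0.48, without GFP replicate 2. Of the 15 called members, 12 stayed called under every alternative that tested them, the others being Krt23, Krt80 and Cldn23. edgeR called 15 members and DESeq2 14. With no filter on low values 10 keratins were called higher, against 6 with the filter. With a minimum mean of 50, which left fewer genes tested, 3 keratins, 3 claudins and 1 of the other epithelial members were called higher. When each library was left out in turn, 4 to 6 keratins, 4 to 5 claudins and 3 other epithelial members were called higher, and 0, 1 and 0 lower.

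With the replicate number as a block the counts were 6 keratins, 5 claudins and 3 others called higher and 1 claudin lower. Of the genes named here, Plec and Myh6 were called with the block and not without it. Ina went the other way, called higher in the main fit and not with the block. Same-numbered libraries deviated together with correlations of 0, 0.15 and 0.02 across genes, so the numbers were not taken as pairs. Depth limits the members below 10 normalized counts, where a few reads decide a value.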
